A study of Mus musculus with 2 samples.

Results

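Background CpGs are the CpG positions that a library enriched for intracisternal A particle (IAP) long terminal repeats (LTRs) covered thinly, away from any amplified IAP. They were chosen by a measured value, the number of methylation calls: a member lay on one of the 19 autosomes, had 1 to 5 calls in its library, and was more than 5 kb from every position with at least 20 calls in either library. The sperm library held 475342 such positions of 754507 covered positions (63.0%), and the tail library held 662576 of 959191 (69.1%). They carried 840936 of 95744413 calls in sperm (0.878%) and 1083985 of 55366653 calls in tail (1.96%). The methylation state of a call was not used to choose them.

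One sperm library and 1 tail library were prepared from the same adult male C57BL/6J mouse, for which the labels give no engineered allele and no treatment. The method, TEPBAT, a form of bisulfite sequencing with target enrichment, copies bisulfite-treated DNA from random tetramers and then amplifies IAP-containing fragments with an LTR primer and a tag primer. Tail is a mixture of somatic cell types, and the sperm sample was one preparation of germ cells. Each tissue is represented by a single library without replicates, and the tests below therefore compare these 2 libraries rather than the tissues.

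In mammals, methyl groups are added mainly to cytosines of CpG dinucleotides. Most CpGs outside CpG islands are methylated, whereas CpG islands, which hold dense CpGs and often gene starts, are mostly free of methylation. Bisulfite converts unmethylated cytosine and leaves methylated cytosine, so each call reads a CpG of one strand as methylated or unmethylated. Sperm DNA is known for high methylation outside CpG islands, apart from promoters that are kept unmethylated in germ cells. A 1-kb bin is used below as the unit of local CpG density.

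Stretches from 3 bins show the kinds of sequence behind the results. The Foxo6 stretch comes from the bin with the most positions covered in both libraries, the chr10 stretch from a bin that was methylated in tail calls only, and the chr12 stretch from a bin that was methylated in sperm calls only. Capitals mark CpGs with a member call in either library, and each line is the plus strand of GRCm38/mm10, 5′ to 3′.
Foxo6 bin, chr4:120268330-120268629: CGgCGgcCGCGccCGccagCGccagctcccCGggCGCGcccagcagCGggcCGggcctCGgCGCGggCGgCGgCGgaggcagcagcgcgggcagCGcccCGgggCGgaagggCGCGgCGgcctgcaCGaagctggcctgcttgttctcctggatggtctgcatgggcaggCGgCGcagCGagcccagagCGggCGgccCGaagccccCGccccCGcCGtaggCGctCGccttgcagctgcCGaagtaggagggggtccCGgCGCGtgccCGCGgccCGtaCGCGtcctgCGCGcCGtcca
Bin methylated in tail calls only, chr10:115904351-115904650: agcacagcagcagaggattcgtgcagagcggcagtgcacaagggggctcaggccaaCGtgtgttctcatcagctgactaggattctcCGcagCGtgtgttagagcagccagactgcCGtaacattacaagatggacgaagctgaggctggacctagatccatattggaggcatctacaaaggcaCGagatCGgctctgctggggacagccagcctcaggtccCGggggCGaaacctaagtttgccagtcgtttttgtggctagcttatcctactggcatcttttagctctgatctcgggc
Bin methylated in sperm calls only, chr12:28048136-28048435: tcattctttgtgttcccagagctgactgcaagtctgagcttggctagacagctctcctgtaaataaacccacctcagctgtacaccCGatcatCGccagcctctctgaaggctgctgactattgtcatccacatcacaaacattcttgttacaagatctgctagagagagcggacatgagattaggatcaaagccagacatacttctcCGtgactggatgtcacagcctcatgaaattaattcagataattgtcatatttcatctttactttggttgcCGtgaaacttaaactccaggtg
The Foxo6 stretch, inside the gene of a forkhead transcription factor, held 49 CpGs with 47 of them covered. The chr10 stretch held 13 CpGs with 8 covered, and the chr12 stretch held 5 CpGs with 4 covered.

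The background was more methylated in sperm than in tail. Of the sperm calls 61.7% were methylated, against 52.9% of the tail calls, a difference of 8.78 percentage points (95% interval 8.64 to 8.92). The p-value of the two-sided Fisher's exact test was too small for the software to represent. This interval and those below cover counting error only, since PCR copies carried no molecular identifiers and neighbouring calls can come from 1 fragment. With only positions of exactly 1 call, and the first of them along each 1-kb bin, the difference was 11.3 points. Bins without such a position were left out, and this setting is called 1 position per bin below.

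Every autosome showed the same direction. Levels on the 19 autosomes ran from 57.4% to 64.7% in sperm (median 61.9%) and from 48.3% to 55.6% in tail (median 53.0%). The ranges did not overlap: the lowest sperm level, on chromosome 19, lay above the highest tail level, on chromosome 3. The difference was widest on chromosome 11, where 59.3% of sperm calls and 48.3% of tail calls were methylated. It was narrowest on chromosome 7, where 58.4% of sperm calls and 52.2% of tail calls were methylated. All 19 autosomes passed the test (100% called higher in sperm), and the odds ratios differed among autosomes (Woolf test, chi-square 366, p = 1.05e-66). Each autosome carried 24730 to 63848 sperm calls and 32392 to 84109 tail calls.

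**Figure D1:**
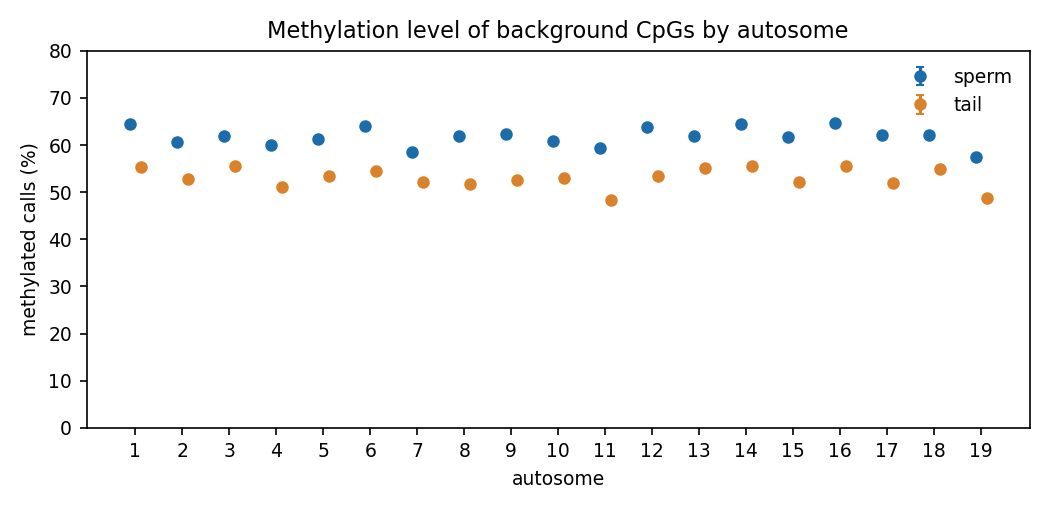
Share of methylated calls (%) at background CpGs on each of the 19 autosomes, sperm in blue and tail in orange, with exact 95% binomial intervals that are smaller than the points. The sperm points sit between 57.4% and 64.7%, all above the tail points at 48.3% to 55.6%.

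The level fell steeply as more member positions of a 1-kb bin were covered. In bins with 1 covered position 84.6% of sperm calls and 69.6% of tail calls were methylated, and in bins with 2 these were 84.1% in sperm and 70.0% in tail. Bins with 3 to 4 covered positions stood at 79.5% in sperm and 67.7% in tail, and bins with 5 to 9 at 58.2% in sperm and 54.4% in tail. In bins with 10 or more covered positions only 6.02% of sperm calls and 7.27% of tail calls were methylated. Sperm was thus higher in 4 of 5 classes (80% called) and lower in 1 of 5 (20% called), by Fisher's exact test with Benjamini-Hochberg adjustment. The small difference in the densest class, -1.25 points (95% interval -1.40 to -1.10), depended on which positions were used: among positions with exactly 1 call the level there was 4.91% in sperm and 4.17% in tail.

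The number of CpGs that the genome holds in the bin gave the same picture without using coverage. In bins with under 5 CpGs 87.0% of sperm calls and 72.0% of tail calls were methylated, in bins with 5 to 9 CpGs 87.1% of sperm calls and 72.4% of tail calls, and in bins with 10 to 19 CpGs 82.2% of sperm calls and 69.0% of tail calls. Sperm was higher in these 3 classes on 19 of 19 autosomes. In bins with 20 to 39 CpGs the order turned, with 50.5% in sperm and 54.0% in tail, and sperm was higher on only 4 autosomes. In bins with 40 or more CpGs, the density of CpG islands, 3.01% of sperm calls and 4.14% of tail calls were methylated, and sperm was higher on 3 autosomes. The difference in the class of 20 to 39 CpGs, -3.42 points (95% interval -3.79 to -3.06), was not held with 1 position per bin, where levels were 56.8% in sperm and 57.4% in tail (adjusted Fisher p = 0.239). The lower sperm level in bins with 40 or more CpGs was also called with 1 position per bin (7.78% in sperm and 10.2% in tail). It was not shared by repeats, marked by soft-masking of the genome sequence. In this class repeats stood at 32.8% in sperm and 29.3% in tail, and the rest at 1.54% in sperm and 2.91% in tail.

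**Figure D2:**
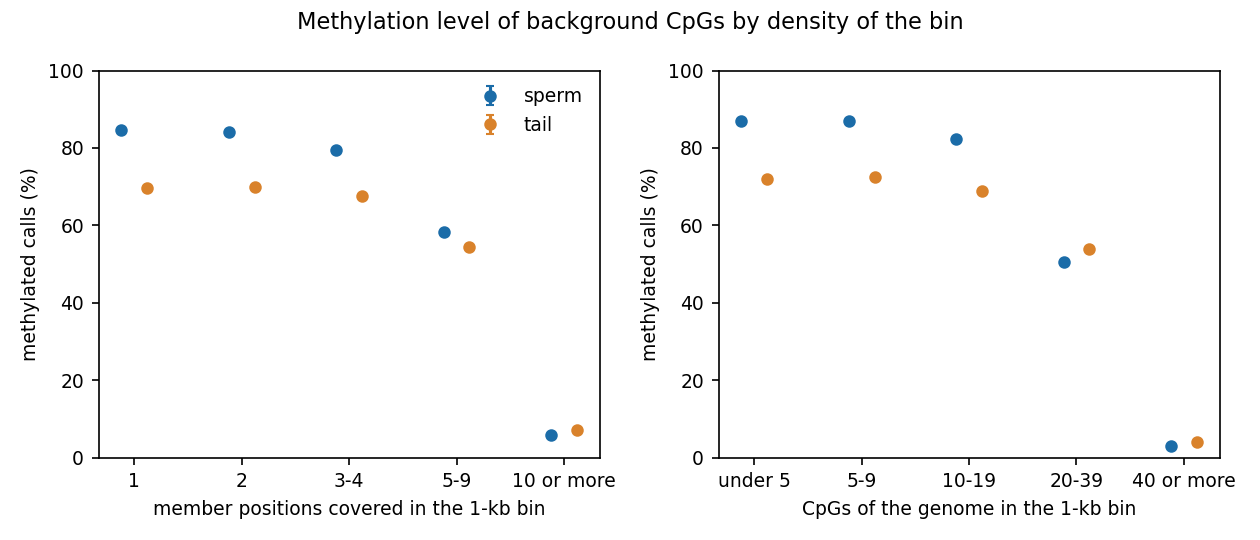
Share of methylated calls (%) at background CpGs by the number of member positions covered in the 1-kb bin (left) and by the number of CpGs the genome holds in the bin (right), sperm in blue and tail in orange, with exact 95% binomial intervals. The level falls from 84.6% in sperm and 69.6% in tail at 1 covered position to 6.02% in sperm and 7.27% in tail at 10 or more, and from 87.0% in sperm and 72.0% in tail to 3.01% in sperm and 4.14% in tail across CpG counts.

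The background was denser in CpGs than the genome. The mean number of CpGs per bin was 13.5 over the sperm member bins and 13.9 over the tail member bins, against 8.61 over all autosomal bins. A bin with more CpGs has more positions that can be covered, so values per bin favour dense bins. Counted by CpG, bins with 40 or more held 6.95% of the autosomal CpGs. They held 22.5% of the sperm members and 22.9% of the tail members. Sperm members reached 34.9% and tail members 50.4% of the genome's bins with 40 or more CpGs. Of bins with under 5 CpGs they reached 2.99% in sperm and 3.79% in tail. Bins with 40 or more CpGs gave 21.6% of the sperm calls and 22.4% of the tail calls, so the mix was close to equal between libraries. When both libraries were given the same mix of CpG classes, sperm was 7.88 points higher. These coverage values describe what was chosen and were not tested.

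Position relative to genes followed the same order. Within 1 kb of the start of a protein-coding gene 3.85% of sperm calls and 4.66% of tail calls were methylated. Introns stood at 80.1% in sperm and 66.2% in tail, and stretches between genes at 75.8% in sperm and 66.4% in tail. Exons outside promoters stood at 52.2% in sperm and 52.4% in tail, a difference of -0.18 points (95% interval -0.59 to 0.23, adjusted Fisher p = 0.388). That near equality held opposite differences. In exons of bins with 10 to 19 CpGs 82.8% of sperm calls and 72.9% of tail calls were methylated, whereas in exons of bins with 20 to 39 CpGs 54.2% of sperm calls and 63.2% of tail calls were. The exon comparison turned with the choice of calls, as with 1 position per bin sperm was at 69.3% and tail at 64.8%.

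In bins with 20 to 39 CpGs the lower sperm level was not shared by all annotations. Between genes levels were 51.1% in sperm and 59.0% in tail, and in promoters 6.05% in sperm and 11.7% in tail. In introns of the same CpG class sperm was higher, at 65.5%, with tail at 60.5%. Of the classes by annotation and CpG count, promoters in bins with 40 or more CpGs were the least methylated, with 0.774% methylated calls in sperm and 1.18% in tail.

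Methylation rose with distance from gene starts in both libraries. Within 0.2 kb 2.15% of sperm calls and 2.39% of tail calls were methylated, and from 0.5 to 1 kb 8.31% of sperm calls and 9.59% of tail calls. From 1 to 2 kb the level was 31.9% in sperm and 30.2% in tail, and from 2 to 5 kb 61.3% in sperm and 53.8% in tail. Beyond 10 kb it reached 78.4% in sperm and 67.6% in tail. Sperm was the lower library in each class up to 1 kb and the higher one in each class beyond.

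**Figure D3:**
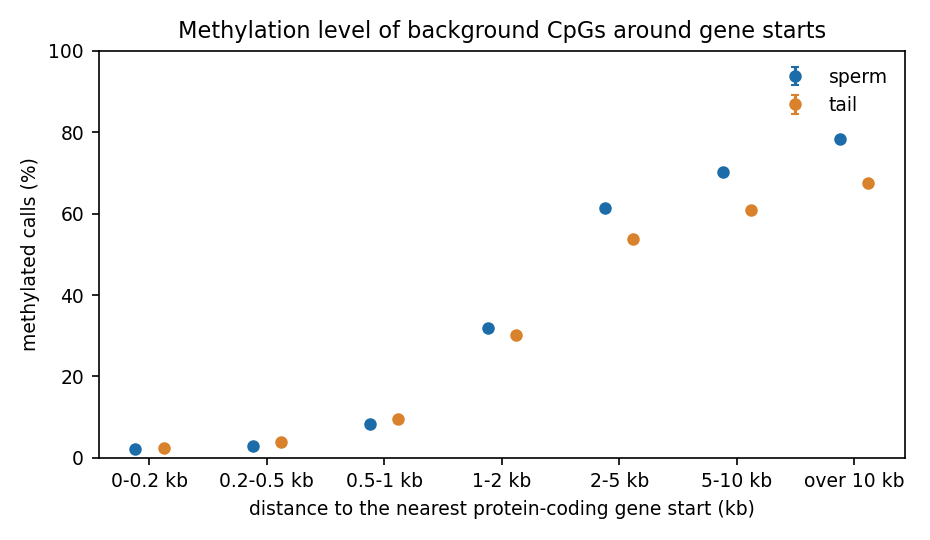
Share of methylated calls (%) at background CpGs by distance to the nearest protein-coding gene start (kb), sperm in blue and tail in orange, with exact 95% binomial intervals. Levels stay at or under 9.59% up to 1 kb and reach 78.4% in sperm and 67.6% in tail beyond 10 kb.

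Single bins were mostly either unmethylated or methylated, and tail held more bins in between. Among bins with 5 to 9 covered positions, 33.0% of 13458 sperm bins and 29.8% of 18634 tail bins were at or under 20%. Intermediate bins, above 20% and up to 80%, made up 17.7% in sperm and 34.3% in tail. Bins above 80% made up 49.2% in sperm and 35.9% in tail. Of bins with 10 or more covered positions, 89.2% of 5727 in sperm and 86.2% of 7526 in tail were at or under 20%. Positions of a bin can come from the same fragment. Of 3633 bins compared below and not called, 65.4% in sperm and 45.2% in tail had all positions on the same strand within 300 bp. In bins called higher in sperm these shares were 63.6% in sperm and 64.5% in tail. In bins called lower they were 67.2% in sperm and 58.2% in tail. The part of this layout in the share of intermediate bins was not tested.

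**Figure D4:**
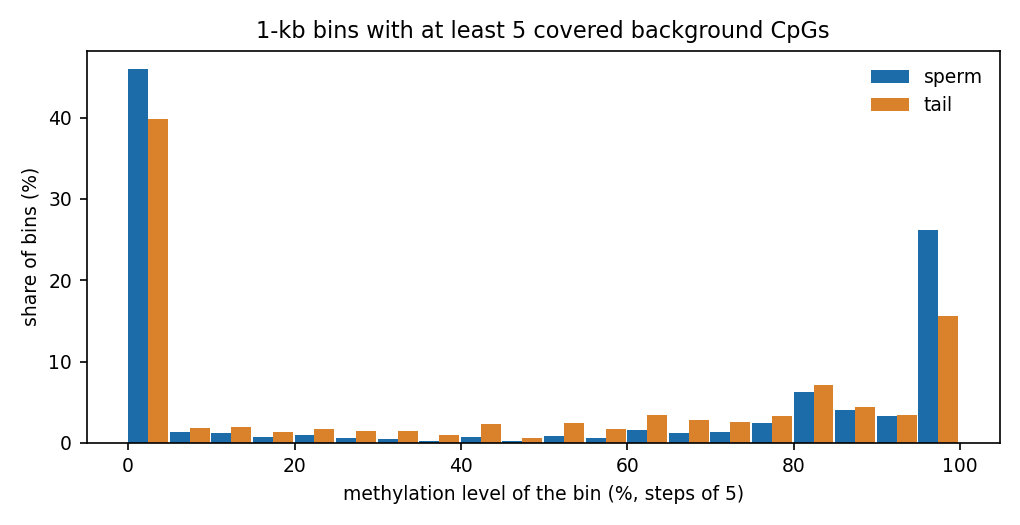
Share of 1-kb bins (%) by methylation level in steps of 5%, for bins with at least 5 covered background CpGs, sperm in blue and tail in orange. Of the 19185 sperm bins 45.9% lie in the lowest step. Among bins with 5 to 9 covered positions, 17.7% of sperm bins and 34.3% of tail bins are intermediate.

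Calls at 1 position mostly carried the same state. Of positions with 2 to 5 calls, 2.89% of 201287 in sperm and 4.75% of 239154 in tail had both methylated and unmethylated calls. Repeat calls at a position can be copies of 1 molecule, so this does not measure agreement between cells. The complementary strands of a CpG come from different first-strand copies, and both were covered at 4812 CpGs with unmixed calls in sperm and 9916 in tail. One strand was methylated and the other not at 9.12% of them in sperm and 13.0% in tail. In bins with 10 to 19 CpGs this was the case for 17.95% of CpGs in sperm and 30.8% in tail.

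Few member positions were covered in both libraries. The 48710 shared positions were 10.2% of the sperm members and 7.35% of the tail members. There 58.4% of sperm calls and 51.0% of tail calls were methylated. Of the 44720 with unmixed calls in each library, 6144 were methylated in sperm only and 3122 in tail only. In bins with 40 or more CpGs the order was the other way, with 105 methylated in sperm only and 277 in tail only.

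Along the chromosomes, 1-Mb windows were compared where both libraries had at least 20 calls. Sperm was higher in 1773 of 2408 windows, and the median difference was 8.16 points. By Fisher's exact test with Benjamini-Hochberg adjustment, 1186 windows were higher in sperm (49.3% called) and 224 lower (9.3% called). With 1 position per bin, and so with fewer calls, 208 windows were called higher and 2 lower. The widest called difference with at least 100 calls was at chr1:194000000-194999999, where 96.6% of 119 sperm calls and 39.2% of 153 tail calls were methylated. Bins with 40 or more CpGs gave 0% of its sperm calls and 33.3% of its tail calls. The widest in the other direction was at chr4:80000000-80999999, with 30.5% of 164 sperm calls and 69.7% of 122 tail calls methylated. There such bins gave 26.8% of the sperm calls and 4.10% of the tail calls. The part of this unequal sampling in the other window calls was not tested.

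Of 1-kb bins, 3877 had at least 10 calls in both libraries, and 75.0% of them were at or under 20% in both. With a minimum difference of 20 points, 110 bins were higher in sperm (2.84% called) and 134 lower (3.46% called). The called bins differed in CpG count: 56 of the bins higher in sperm but 20 of those lower in sperm held 10 to 19 CpGs, and 33 of the higher but 74 of the lower held 20 to 39 CpGs. The number of molecules behind a bin is not known. In 85.5% of the higher and 84.3% of the lower bins the positions of at least 1 library lay on 1 strand within 300 bp, a stretch that 1 fragment could span, and so did those of 78.5% of the bins not called. With each position counted once, in an alternative added after the data were seen, 10 bins were higher and 9 lower, and 9 and 9 of them were among the bins called with all calls.

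The 10 bins named by rule had the widest differences, with ties ordered by chromosome name: 16 bins higher and 21 lower in sperm were methylated in every call of one library and in no call of the other. The 5 higher in sperm were all methylated in sperm calls and all unmethylated in tail calls. They include a bin over the start of Notum, which encodes a lipase that inactivates Wnt proteins, with 11 of 11 sperm calls and 0 of 21 tail calls methylated. A bin inside Rbfox1, a splicing regulator gene, had 10 of 10 sperm calls and 0 of 10 tail calls methylated. The bin of the chr12 stretch had 13 of 13 sperm calls at 3 positions and 0 of 16 tail calls at 4 positions methylated. The 5 lower in sperm were the reverse. A bin in Crygf, a lens crystallin gene, had 0 of 11 sperm calls and 10 of 10 tail calls methylated, and a bin in Btnl9 had 0 of 35 sperm calls and 15 of 15 tail calls. The bin of the chr10 stretch had 0 of 21 sperm calls at 8 positions and 10 of 10 tail calls at 3 positions methylated. All 10 were also under the limit of 10 positions in at least 1 library and so were not among the 18 bins called both ways.

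Among the 18 bins called both ways, named after their values were seen, the bin at the start of Tsg101, an endosomal sorting gene, had 12 of 12 sperm calls and 0 of 56 tail calls methylated. The 12 sperm positions lay on 1 strand within 159 bp. The bin at the start of Ciapin1 had 14 of 14 sperm calls and 0 of 14 tail calls methylated, within 106 bp on 1 strand in sperm. In the other direction, the bin at the start of Lsm4, an RNA-processing gene, had 0 of 40 sperm calls and 16 of 22 tail calls methylated. A bin near Arhgap9 had 4 of 94 sperm calls and 27 of 37 tail calls methylated. Its positions spanned 339 bp in sperm and 344 bp in tail.

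The bins described here, among those with the most positions covered in both libraries, were CpG-dense with almost no methylation. The Foxo6 bin had 0 of 105 sperm calls at 74 positions and 0 of 133 tail calls at 70 positions methylated. The Lpin2 bin had 0 of 165 sperm calls and 0 of 114 tail calls, and the Purb bin 0 of 71 sperm calls and 0 of 88 tail calls. The Sox30 bin had 0 of 123 sperm calls and 7 of 131 tail calls methylated, which did not pass (adjusted Fisher p = 0.173). Sox30 is a transcription factor gene active in male germ cells.

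Promoters, taken as 1 kb on either side of a protein-coding gene start, were mostly unmethylated in both libraries. Of 2686 promoters with at least 10 calls in both libraries, 95.4% were at or under 20% in both. In sperm 28 were called higher (1.04%) and 32 lower (1.19%), with the minimum difference of 20 points. Of the promoters called higher in sperm, Ifitm3, an interferon-induced membrane protein gene, had 17 of 17 sperm calls and 0 of 14 tail calls methylated, and Stat3, a transcription factor gene, had 9 of 14 sperm calls and 0 of 26 tail calls. Of those called lower, Sohlh1, which encodes a germ cell transcription factor, had 6 of 30 sperm calls and 12 of 13 tail calls methylated. Pitx1, a homeobox gene of hindlimb development, had 0 of 24 sperm calls and 5 of 10 tail calls methylated. These 4 genes were chosen after their values were seen.

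Promoters of germline genes, which are known to be methylated in somatic tissue, were covered at different genes in the libraries. Of 26 listed genes on autosomes 4 had sperm calls and 10 had tail calls. In sperm the promoters of Dazl, an RNA-binding protein of germ cells, and of Tdrkh, a piRNA pathway protein, each had 0 of 20 calls methylated, and Syce1, of the synaptonemal complex, had 0 of 11. Hormad1, another meiotic chromosome protein, had 2 of 2 sperm calls and 0 of 1 tail calls methylated and was the one gene with calls in both. In tail the promoters of Sohlh2 had 23 of 24 calls methylated, Tex15 had 15 of 15, Ddx4 had 5 of 5 and Tdrd9 had 4 of 4. Over the list 3.77% of 53 sperm calls and 92.9% of 56 tail calls were methylated, against 3.64% in sperm and 4.36% in tail over all coding promoters. No gene of the list had 10 calls in both libraries, so none was compared.

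Listed developmental regulators with CpG islands had few methylated calls, 1.59% of 755 in sperm and 4.27% of 1053 in tail, beside 3.64% in sperm and 4.36% in tail over all coding promoters. None of the 11 genes with 10 calls in both libraries was called, where 1.04% of all tested promoters were called higher and 1.19% lower, so the count does not set the list apart. Hoxa11 had 0 of 48 sperm calls and 0 of 96 tail calls methylated, Six2 had 0 of 170 sperm calls and 0 of 54 tail calls, and Hoxd8 had 0 of 79 sperm calls and 1 of 18 tail calls. Hoxc13, a Hox gene of hair, nail and tail development, had 0 of 83 sperm calls and 8 of 47 tail calls methylated (adjusted Fisher p = 0.0112), a difference under the minimum of 20 points. Tbx3 had 0 of 34 sperm calls and 4 of 29 tail calls methylated (adjusted Fisher p = 0.824). The rest with enough calls were Gata2, Foxa1, Foxd3, Hoxd1, Nkx2-5 and Sox2, with 0 to 1 methylated calls in sperm and 0 to 2 in tail.

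Housekeeping promoters stood at 0.985% of 203 sperm calls and 3.30% of 364 tail calls, beside the same 3.64% in sperm and 4.36% in tail over all coding promoters. Psmb2, Psmd4, Ppia and Pgam1 had 10 calls in both libraries and none was called, at the same shares of 1.04% and 1.19% over all promoters. Among them only Psmb2 had a methylated call, 1 of 30 in tail. Spermatid gene promoters stood at 1.35% of 74 sperm calls and 2.90% of 138 tail calls, and Catsper2, Spata18 and Zpbp had no methylated call in either library. Promoters of skin and tail genes stood at 44.7% of 94 sperm calls and 19.3% of 57 tail calls. The methylated sperm calls there came mainly from Acta1, with 22 of 22, and from Krt10 and Myh2, with 7 of 7 each, of which only Krt10 had tail calls (3 of 6 methylated). Col2a1, a cartilage collagen gene, was the one gene of this list with 10 calls in both libraries, with 0 of 26 sperm calls and 1 of 12 tail calls methylated.

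Imprinted genes carry methylation from 1 parent, so a somatic tissue is known to hold both states. Among genes methylated in oocytes, 1.37% of 146 sperm calls and 11.0% of 136 tail calls were methylated. Sperm calls at Peg3, Igf2r, Peg10 and Nespas were 0 of 29, 0 of 15, 0 of 14 and 0 of 12 methylated. Slc38a4 had 0 of 8 and Impact 1 of 2 sperm calls methylated. In tail Plagl1 had 5 of 24 calls methylated and Nespas and Slc38a4 had 4 of 4 and 5 of 5. Other tail promoters had few or none: Peg13 had 0 of 41, Mcts2 had 0 of 20, Gnas had 1 of 8 and Impact had 0 of 2. Zrsr1 was the one gene with 10 calls in both libraries, at 1 of 66 sperm calls and 0 of 32 tail calls. Among genes methylated in sperm, Meg3 had 2 of 3 sperm calls methylated, and H19 and Rasgrf1 had 0 of 4 and 0 of 12. Both lists were read over windows around gene starts, which need not hold the imprinted region. The values of Igf2r and the other genes are therefore not levels of imprinted regions.

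The background differed from positions close to amplified IAPs that had the same limit of 1 to 5 calls. Such positions within 5 kb of an amplified position numbered 73708 in sperm and 97050 in tail. They had more calls each than the background: 1.77 calls per background position and 1.97 per near position in sperm, and 1.64 per background position and 1.86 per near position in tail. In sperm 61.7% of background calls and 67.5% of near calls were methylated, a difference of -5.87 points (95% interval -6.13 to -5.61). In tail 52.9% of background calls and 62.8% of near calls were, a difference of -9.93 points (95% interval -10.2 to -9.69). With exactly 1 call in both sets the differences were -4.04 points in sperm and -7.33 points in tail. With the limit between the sets at 50 kb, the differences were -1.27 points in sperm and -1.63 points in tail. That limit moved the background positions from 5 to 50 kb into the near set, so these values do not show a trend with distance. Soft-masked repeats held 17.6% of background positions and 43.5% of near positions in sperm, and 16.5% of background and 40.04% of near positions in tail. With 1 position per bin the sperm difference turned to 5.43 points and the tail difference was -0.34 points (Fisher p = 0.3001), so neither pooled difference held in that setting.

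Within CpG classes the contrast changed direction. In bins with under 5 CpGs the background was the more methylated set in sperm, 87.0% against 80.4% near, and in tail, 72.0% against 69.7% near. In bins with 20 to 39 CpGs it was lower, with 50.5% background and 70.4% near in sperm and 54.0% background and 72.4% near in tail. In bins with 40 or more CpGs the background stood at 3.01% and near positions at 17.8% in sperm, and the background at 4.14% and near positions at 18.9% in tail.

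**Figure D5:**
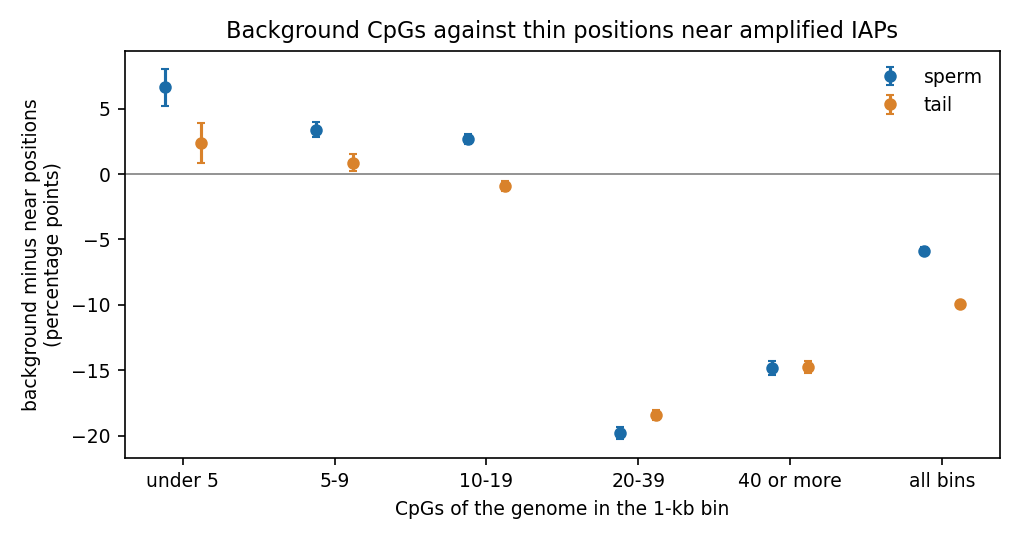
Difference in methylated calls (percentage points) between background CpGs and positions with 1 to 5 calls within 5 kb of an amplified position, by CpGs in the 1-kb bin and over all bins, sperm in blue and tail in orange, with 95% intervals. The difference is 6.62 points in sperm and 2.36 in tail with under 5 CpGs, and -19.8 in sperm and -18.4 in tail with 20 to 39 CpGs.

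Between 5 and 100 kb the level changed little with the distance to the nearest amplified position, and farther away it was higher. From 5 to 10 kb 62.1% of sperm calls and 54.0% of tail calls were methylated, and from 50 to 100 kb 61.1% of sperm calls and 52.2% of tail calls. From 200 to 500 kb it was 64.0% of sperm calls and 55.7% of tail calls. Beyond 500 kb, with 2208 sperm calls and 2700 tail calls, levels were 71.6% in sperm and 62.1% in tail. Only 1.08% of sperm members and 0.951% of tail members lay within 5 kb of any of 10283 LTR copies found by sequence search, and their level was 68.8% in sperm and 69.2% in tail. Members in soft-masked repeats stood at 76.2% in sperm and 69.6% in tail, and the rest at 58.9% in sperm and 49.9% in tail. On the plus strand levels were 61.2% in sperm and 52.6% in tail, and on the minus strand 62.1% in sperm and 53.1% in tail.

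At the edges of the rule the level moved with the number of calls. Positions with 5 calls, just inside, stood at 67.1% in sperm and 58.0% in tail, and far positions with 6 calls, just outside, at 68.6% in sperm and 58.4% in tail. Positions with 1 call stood at 59.1% in sperm and 51.7% in tail. Thin positions 5 to 6 kb from an amplified position stood at 64.1% in sperm and 55.5% in tail, and those 4 to 5 kb away at 63.6% in sperm and 53.6% in tail. Positions with 1 call made up 57.7% of the sperm members and 63.9% of the tail members.

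The last 10 bases of the IAP-BS1 primer occurred in a larger share of member bins than of all bins, though not in each CpG class. Both strands were searched after every cytosine was read as thymine, and the motif is named only because it holds a mixed base. It was found in 5.22% of sperm member bins and 4.84% of tail member bins, against 2.75% of all autosomal bins. In bins with under 5 CpGs the shares were 7.24% in sperm and 6.98% in tail, against 2.79% of all such bins. In denser bins the order was the reverse: with 20 to 39 CpGs the shares were 3.67% in sperm and 3.35% in tail, against 5.82% of all such bins, and with 40 or more CpGs 1.41% in sperm and 1.10% in tail, against 2.30%. All bins include those of the amplified IAP LTRs, which the member rule leaves out, so the 2 sets are not alike there. The last 12 bases were in 3.87% of all bins with 20 to 39 CpGs and in 0.41% of such sperm member bins. The last 10 bases of IAP-BS2, ataaagtttt, were found in 11.1% of sperm member bins and 10.7% of tail member bins, against 10.9% of all bins. Such a match is a description of the sequence and does not show where a primer bound.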

How the data were processed

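DNA methylation was measured by TEPBAT in 1 sperm and 1 tail library. The authors trimmed the reads, mapped them with Bismark (version not given in the sources used here) to mm10, kept unique pairs and deposited, for each CpG position of a strand, a percent methylation with counts of methylated and unmethylated calls. The percent was not used. Levels are methylated calls over all calls, from the deposited counts. Both libraries came from 1 mouse and there are no replicates.

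The members, gene lists and tests were chosen with earlier results of these data known. Bins of 1 kb were classed by covered member positions and by CpGs in GRCm38 (the mm10 sequence). Genes came from GENCODE M21, and soft-masking marked repeats. LTR copies of at least 250 bp were found with blastn 2.17.0 from 15 subfamily sequences. Calls summed over members were compared by two-sided Fisher's exact test, with Benjamini-Hochberg adjustment over all windows (20 calls in both libraries), bins or promoters (10 calls in both) and a threshold of 0.05. Bins and promoters also needed a difference of 20 points. The contrast with near positions was compared between libraries by a z test of log odds ratios. Intervals of levels are exact binomial (Clopper-Pearson) at 95%. Listed promoters are given by counts, with no test over a list. Named by rule were the autosomes, the windows and bins with the largest called differences (ties by chromosome name and start), the bins with the most positions covered in both libraries, and listed genes with 10 calls in both libraries, of which 1 bin is not reported here. On simulated data with independent calls the test recovered 195 of 200 windows lowered by 30 points, with 12 unchanged windows called lower and 2 called higher, and 129 of 200 bins lowered by 60 points, with 1 unchanged bin called lower. Copies of 1 molecule were not simulated. With 1 library per tissue the tests compare libraries. Alternatives changed the limits on calls, distance, amplification, bin width and promoter width, and the weight of positions. The tests ran in scipy 1.17.1 under Python 3.11.15, with pandas 2.3.3 and numpy 2.4.6.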

Additional observations from a re-analysis of the deposited data

Results flagged for a closer look

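The contrast between background and thin positions near amplified IAPs differed between the libraries. Background minus near positions was -5.87 points in sperm and -9.93 points in tail. The log odds ratio in sperm minus that in tail was 0.152 (SE 0.008 from the call counts, past the threshold of the z test). Over the alternatives it ran from 0.01 with the limit at 50 kb to 0.29 with 1 position per bin. In bins with 20 to 39 CpGs the same difference was -0.04 (SE 0.01) and in bins with 40 or more CpGs -0.26 (SE 0.03), so its direction differed with CpG density.

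Thin background positions outside the autosomes were not part of the comparisons above. On the X chromosome 60.8% of 15597 sperm calls and 58.0% of 18238 tail calls were methylated. On the Y chromosome 59.6% of 4151 sperm calls and 75.2% of 3338 tail calls were methylated, the reverse of the autosomal order. Mitochondrial DNA is mostly taken as unmethylated. There 7.04% of 71 sperm calls (95% interval 2.33 to 15.7) and 0.626% of 1277 tail calls (95% interval 0.27 to 1.23) were methylated. The sperm value rests on 5 methylated calls. The 1277 tail calls lay at 155 positions, more than the limit of 5 calls per position allows, so the mitochondrial positions were not all thin. Far positions with 6 to 19 calls, above the limit of the members, stood at 73.0% in sperm and 62.7% in tail.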

How the results depend on the processing

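No analysis paired over animals was possible, because both libraries came from 1 mouse and the labels give no replicate numbers. Pairing was possible only by position, at the positions covered in both libraries. The higher sperm level kept its direction in all alternatives (7.40 to 12.5 points), with 8.22 points as a mean over positions and 12.5 as a mean over 1-kb bins, and the 19 autosomes were higher in sperm in each alternative run. Restricting members to reference CpGs changed nothing, as every position is one.

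Classes and windows moved more. Bin classes by covered positions called lower in sperm numbered 0 with exactly 1 call and with 1 to 2 calls, and 2 with positions covered in both libraries. CpG-count classes called lower numbered 1 with 1 position per bin and 1 with shared positions, and annotation classes called lower numbered 2 with exactly 1 call. The 1-Mb windows called higher and lower numbered 578 and 77 with exactly 1 call, 208 and 2 with 1 position per bin, 177 and 24 with shared positions, and 366 and 23 as 5-Mb windows. Windows called lower numbered 128 with 1 to 2 calls and 89 with each position counted once.

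Bins called higher and lower numbered 6 and 2 with exactly 1 call, 13 and 23 with 1 to 2 calls, 402 and 269 with 1 to 10 calls, 56 and 75 beyond 50 kb, 22 and 27 with shared positions, 9 and 21 with at least 20 calls, and 10 and 9 with each position counted once. Fewer bins were testable in all of these but that with 1 to 10 calls, and other causes were not tested. With 1 position per bin, background minus near positions was 5.43 points in sperm and -0.34 in tail. That setting gave no value for bins or for classes by covered positions. With promoters of 500 bp on either side the sperm minus tail difference was -19.7 points for genes imprinted in oocytes, 74.9 for skin and tail genes and 1.41 for spermatid genes. These rest on 73, 26 and 71 sperm calls. Within 1 kb the libraries covered partly different genes of each list, so these differences do not compare the same promoters.

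Depth limits these values: most members had 1 call, and PCR copies could not be told apart from independent molecules.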
